A study of Mus musculus with 24 samples.

Results

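Transcript levels in the ventral tegmental area (VTA) were compared between the late rest phase and the late active phase of mice, at ZT8 and at ZT20. Zeitgeber time (ZT) counts hours from lights on, and the mice lived under 12 h of light and 12 h of dark, so the groups lie 12 h apart, one in the light and one in the dark. The 8 arrays were chosen by their time labels alone, 4 per group, from the 24 arrays with which the study followed the VTA over the day at 6 time points. All mice were untreated WT males of the C57BL/6N strain, aged 10 to 12 weeks, with standard chow and water freely available. The time of sampling is thus the only labelled difference between the groups. The comparison asks which mRNAs differ between a late hour of rest and a late hour of activity, in tissue punches that hold every cell type of the region.

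The VTA is a midbrain region whose dopamine neurons project to the nucleus accumbens and serve reward and motivation, food reward included. In the molecular clock, CLOCK and BMAL1 (the product of Arntl) bind E-boxes in DNA and activate their own repressors, the Per and Cry genes. They also activate Nr1d1, which encodes the nuclear receptor REV-ERBα, and REV-ERBα in turn represses Arntl through response elements it shares with the ROR receptors. Mice sleep mostly in the light and eat mostly in the dark, and feeding, body temperature and glucocorticoids give time cues to tissues outside the master clock of the suprachiasmatic nucleus.

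The promoters of 2 clock repressors are shown, chosen by the differences of these genes between ZT8 and ZT20. Nr1d1 was the transcript that passed the test. Ciart, which encodes a repressor of CLOCK and BMAL1, had the next larger difference among the clock genes by its probe set of higher level. The other Ciart probe set gave 0.01 (-0.26 to 0.29), and which of them matches the window shown was not tested. Both windows run 5′ to 3′ from 250 bases before to 50 bases after the start site in RefSeq (build GRCm38.p6), on the minus strand, at chr11:98775328-98775627 for Nr1d1 and at chr3:95882179-95882478 for Ciart. Capitals mark the E-box CACGTG.
Nr1d1: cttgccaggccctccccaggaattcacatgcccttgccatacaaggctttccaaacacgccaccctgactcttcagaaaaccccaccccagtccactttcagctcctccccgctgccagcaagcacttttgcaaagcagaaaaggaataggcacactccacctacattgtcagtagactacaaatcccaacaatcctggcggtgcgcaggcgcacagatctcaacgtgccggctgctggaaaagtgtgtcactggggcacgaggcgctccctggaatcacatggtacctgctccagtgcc
Ciart: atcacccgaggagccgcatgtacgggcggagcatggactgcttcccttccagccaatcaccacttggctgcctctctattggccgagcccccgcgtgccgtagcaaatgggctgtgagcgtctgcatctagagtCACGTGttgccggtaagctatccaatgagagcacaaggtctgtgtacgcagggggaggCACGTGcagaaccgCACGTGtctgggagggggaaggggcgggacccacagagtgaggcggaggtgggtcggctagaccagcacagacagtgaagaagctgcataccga
The Ciart window held 3 E-boxes, at positions 135, 193 and 207 counted from its 5′ end, and the Nr1d1 window held 0. The letters CACGTG, which read the same on both strands, occurred in 7.15% of 32851 promoter windows of this length. Of 17 clock genes with a window in the table, 5 held the E-box (Bhlhe41, Ciart, Cry1, Per1 and Tef). A gene was counted if any of its windows held a motif, whereas the percentages are shares of single windows. The D-box TTATGTAA, searched on both strands, was found in 1 of the 17, Per3, and in 0.938% of all windows. The half-site AGGTCA, read by REV-ERBs and RORs and also searched on both strands, was in 5 of the 17 (Arntl, Clock, Nfil3, Nr1d2 and Per1) and in 16.3% of all windows. Neither of these other motifs was in the windows of Nr1d1 and Ciart. A match is a description of these letters, not a binding site.

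The deposited values are on the log2 scale, and each of the 23410 probe sets with a gene is called a transcript here. Medians of the 24 arrays lay between 6.71 and 6.79, and the median correlation of each of the 8 arrays with the other arrays was 0.989 to 0.993. ZT0 replicate 4, which is in neither group, stood apart at 0.970. Defining markers of dopamine neurons were measured at both times, with mean levels at ZT8 of 8.52 for Slc6a3, the dopamine transporter, and 7.82 for Th, the rate-limiting enzyme of dopamine synthesis, against a median of 6.76 over all transcripts. Markers of neighbouring cell types were measured too, as is usual for punches. In such bulk samples, fewer cells of a type and less RNA per cell cannot be told apart.

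Between ZT8 and ZT20, 1 transcript of 23410 passed an adjusted p under 0.05 in limma (0.00427%), and it was Nr1d1. At an unadjusted p under 0.05 there were 1001 transcripts (4.28%), of which 476 were higher at ZT8 (2.03%) and 525 were lower (2.24%). Mean levels were higher at ZT8 for 11637 transcripts (49.7%), and the median difference over all transcripts was 0.00 on the log2 scale. All 4 arrays at ZT8 lay above all 4 at ZT20 for 418 transcripts (1.79%) and below them for 427 (1.82%). Differences between the groups were small, with percentiles 1 and 99 of all transcripts at -0.25 and 0.25, and 13 transcripts were further than 0.5 from 0. The median standard error of a difference was 0.0933. The number of arrays, 4 per group, limits the precision.

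Nr1d1 was the transcript with the smallest p. Its level was 8.81, 8.74, 8.73 and 8.55 on the 4 arrays at ZT8, and 8.29, 8.17, 8.20 and 8.10 on the 4 arrays at ZT20. The groups did not overlap, and the lowest array at ZT8 was clear of the highest at ZT20. Nr1d1 mRNA was 0.51 higher at ZT8 on the log2 scale (SE 0.0843, adjusted p = 0.0455 from limma), a fold of 1.43 with a 95% confidence interval of 1.27 to 1.61. Over the day, its mean level was 8.22 ± 0.10 at ZT0, 8.44 ± 0.13 at ZT4, 8.70 ± 0.11 at ZT8, 8.59 ± 0.12 at ZT12, 8.35 ± 0.14 at ZT16 and 8.19 ± 0.08 at ZT20 (SD, n = 4 each). The highest mean was thus at ZT8 and the lowest at ZT20. ZT8 and ZT12 at the top, and ZT20 and ZT0 at the bottom, lay within an SD of each other. The call was close to the threshold. It was lost in all fits that left out 1 array of ZT8 or ZT20 except the fit without ZT8 replicate 4, while the difference stayed between 0.48 and 0.57. It was also lost without ZT0 replicate 1, 2 or 3, ZT4 replicate 1, 2 or 3, ZT12 replicate 2, 3 or 4 or ZT16 replicate 2 or 3, and the adjusted p from limma over all 24 fits without 1 array ranged from 0.0206 to 0.477.

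**Figure D1:**
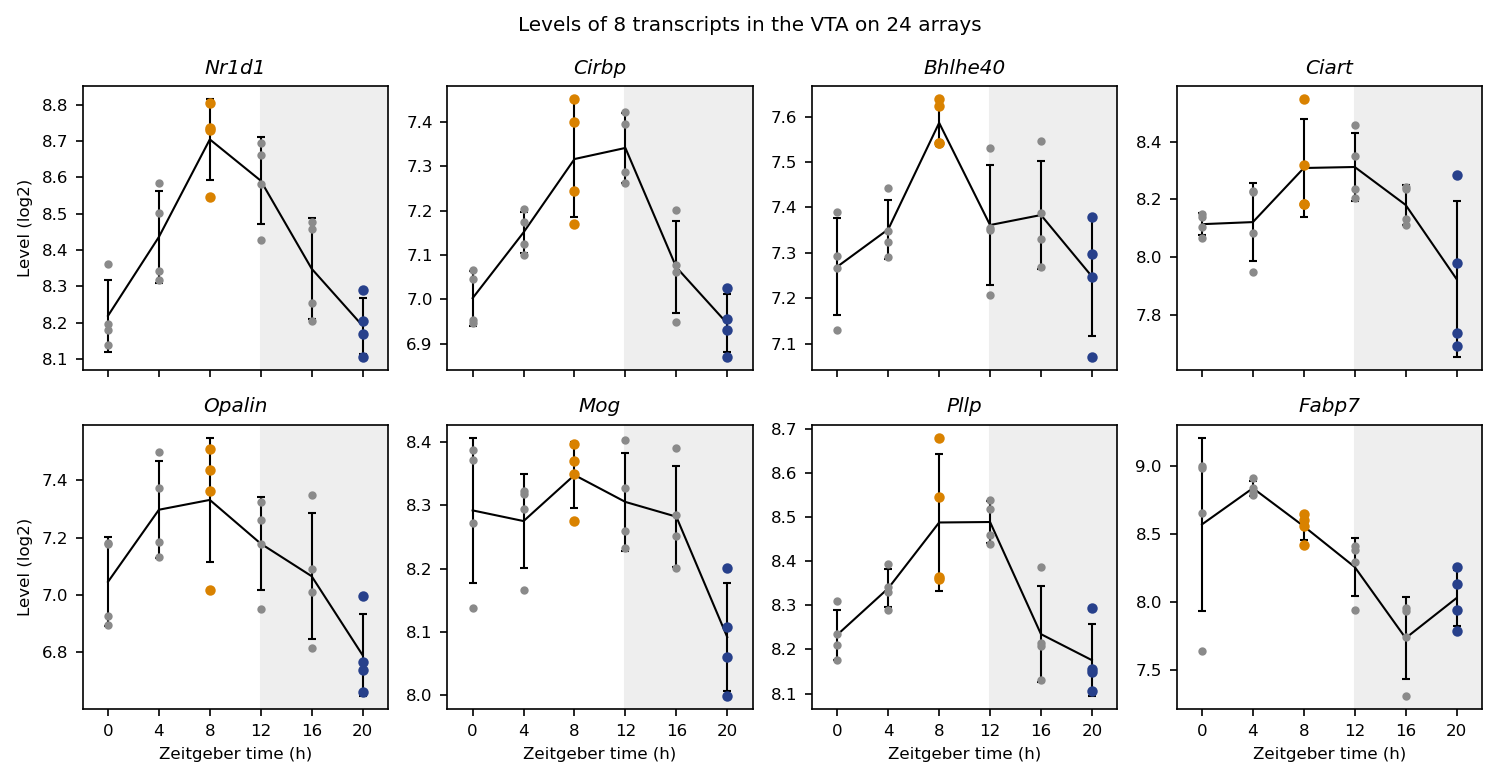
Level (log2) of 8 transcripts against Zeitgeber time (h) on all 24 arrays, with ZT8 arrays in orange, ZT20 arrays in blue, other arrays in grey and the dark phase shaded; lines join the means and bars are SD (n = 4). Nr1d1 means run from 8.19 at ZT20 to 8.70 at ZT8, and the orange and blue points of Ciart overlap whereas those of the other 7 do not.

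The clock genes were measured by 20 transcripts, in lists of 4 activators and RORs, 10 repressors and 6 output genes. Of the 20, 13 had the higher mean at ZT8 and 7 at ZT20, with a median difference of 0.02. An unadjusted p under 0.05 was reached by 3 that were higher at ZT8 and by 0 that were lower, where 2.03% and 2.24% of all transcripts were. These were the repressors Nr1d1, Bhlhe40 and Ciart. Bhlhe40, which encodes the E-box-binding repressor DEC1, was at 7.54, 7.64, 7.54 and 7.62 at ZT8 and at 7.30, 7.38, 7.07 and 7.25 at ZT20. Its groups did not overlap either. The difference was 0.34 (95% interval 0.17 to 0.50), and the adjusted p of 0.733 from limma missed the threshold. Ciart was at 8.18, 8.32, 8.19 and 8.55 at ZT8 and at 8.29, 7.98, 7.74 and 7.69 at ZT20. Here ZT20 replicate 1 lay among the ZT8 arrays, while the other 3 were lower than all of them. Its difference was 0.39 (0.17 to 0.60, adjusted p = 0.999 from limma), but the other Ciart probe set gave 0.01 (-0.26 to 0.29). The mean level of the 10 repressors was 7.44 to 7.49 on the ZT8 arrays and 7.30 to 7.40 on the ZT20 arrays, without overlap, although 6 of the 10 were higher at a median of 0.01.

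The other clock genes gave differences whose intervals included 0. The second REV-ERB gene, Nr1d2, gave 0.10 (-0.06 to 0.27). Cry1, whose product represses CLOCK and BMAL1 by direct binding, gave -0.16 (-0.35 to 0.02). The repressor genes Per1, Per2, Per3 and Cry2 gave 0.02, -0.05, -0.06 and -0.01. Bhlhe41, which encodes DEC2, gave 0.00 with a wide interval of -0.33 to 0.33. Among the output genes, of which Dbp, Hlf and Tef encode activators that bind D-boxes, Dbp gave 0.16 (-0.01 to 0.33), Hlf 0.13 and Tef 0.01. The D-box repressor gene Nfil3 gave -0.07, the deubiquitinase gene Usp2 gave 0.03 and the cell cycle kinase gene Wee1 gave 0.02. The activators Arntl and Clock gave 0.07 (-0.08 to 0.22) and -0.04 (-0.20 to 0.13), and Rora and Rorb, whose products share response elements with REV-ERBs, gave -0.03 and 0.06.

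The same genes gave other values at the other pairs of times 12 h apart, which share no arrays with ZT8 and ZT20. Of the 20 clock transcripts, 5 had the higher mean at ZT4 than at ZT16 (median difference -0.11), and 3 had the higher mean at ZT0 than at ZT12 (median difference -0.16). Over all transcripts, 0 passed the adjusted threshold between ZT4 and ZT16 in limma (0%), with 1227 at an unadjusted p under 0.05 (5.24%). Between ZT0 and ZT12, 8 passed (0.0342%) and 1982 had an unadjusted p under 0.05 (8.47%). Dbp was among the 8 (-0.44, adjusted p = 0.0469 from limma), lower at the beginning of the light than at its end.

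The difference of differences was tested in the same fit. Against ZT0 minus ZT12, the ZT8 minus ZT20 difference had another value, sign included, for 2 transcripts at an adjusted p under 0.05 (0.00854%). There were 1104 at an unadjusted p under 0.05 (4.72%). This contrast equals the sum of ZT8 and ZT12 less the sum of ZT20 and ZT0. A transcript high at both ZT8 and ZT12 gives a large gap even where the 2 differences are alike in size. Nr1d1 gave 0.51 at ZT8 minus ZT20 and -0.37 at ZT0 minus ZT12, a gap of 0.89 (0.64 to 1.13, adjusted p = 0.0016 from limma). Cirbp, which encodes the cold-inducible RNA-binding protein CIRP, gave 0.37 and -0.34, a gap of 0.71 (0.50 to 0.92, adjusted p = 0.00252 from limma). Both transcripts had the higher mean in the late light than in the late dark, and at the beginning of the dark than at the beginning of the light. The next transcripts by p missed the threshold, with gaps of 0.57 for Pllp (adjusted p = 0.0847 from limma), 0.61 for Dbp and -0.58 for Hspa5 (both adjusted p = 0.124). Against ZT4 minus ZT16, 0 transcripts passed in limma (0%) and 578 had an unadjusted p under 0.05 (2.47%). There, Nr1d1 gave a gap of 0.43 with an unadjusted p of 0.00141 from limma, which missed the adjusted threshold. Mir34a, Olfr1212, Nudt8, Hmcn1 and Trpc6 had the smallest p in this comparison, and their differences between ZT8 and ZT20 were 0.38, 0.38, 0.25, -0.25 and 0.07. The Hmcn1 value is that of 1 probe set, and the 76 other Hmcn1 probe sets ran from -0.34 to 0.38, 33 of them above 0.

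**Figure D2:**
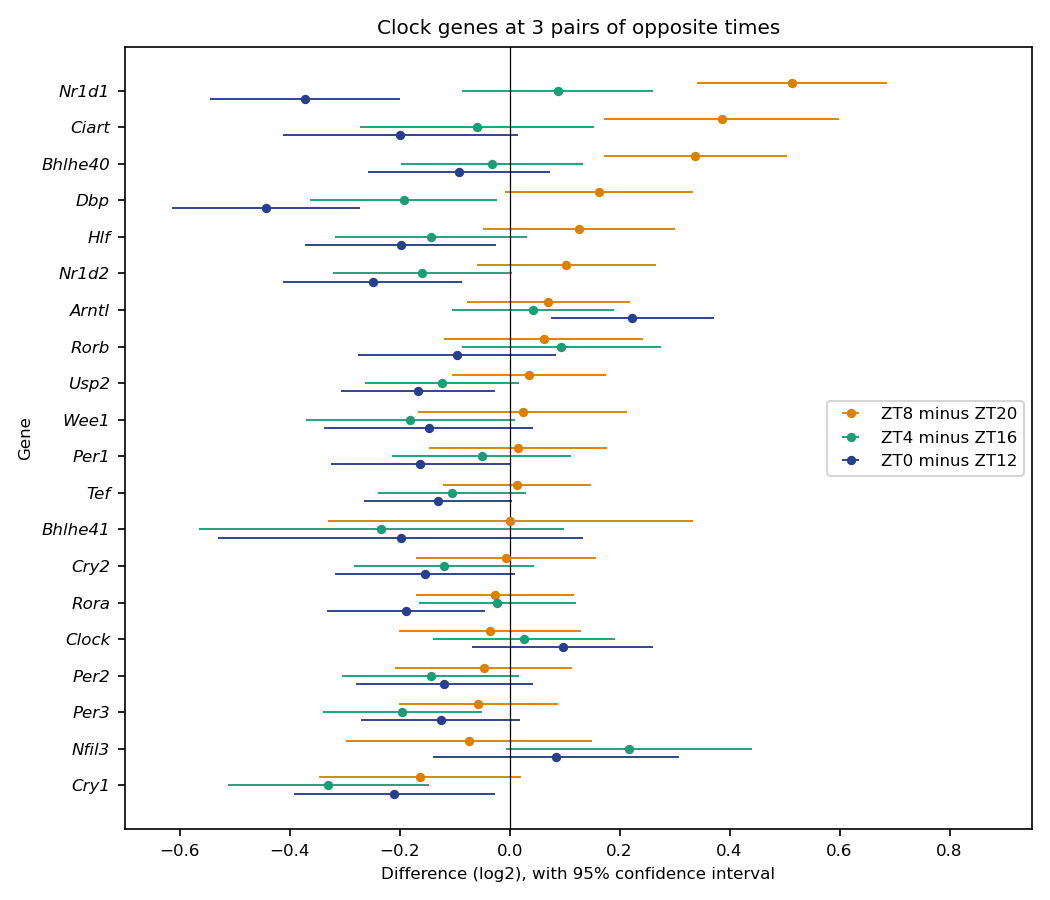
Difference in level (log2, horizontal axis) of the 20 clock transcripts at 3 pairs of times 12 h apart, ZT8 minus ZT20 in orange, ZT4 minus ZT16 in green and ZT0 minus ZT12 in blue, with 95% confidence intervals from limma as bars. Nr1d1, Ciart and Bhlhe40 have orange intervals above 0, and Nr1d1 lies at 0.51 in orange and at -0.37 in blue.

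Cirbp was the second transcript by p between ZT8 and ZT20. It was at 7.45, 7.40, 7.17 and 7.24 at ZT8 and at 6.87, 6.93, 7.03 and 6.96 at ZT20. The groups did not overlap, with the ZT8 arrays spread more widely than the ZT20 arrays. The difference of 0.37 (0.22 to 0.52) had an adjusted p of 0.268 from limma, which missed the threshold. The other cold-inducible gene, Rbm3, also encodes an RNA-binding protein made at lower body temperature. It was at 9.73, 9.68, 9.17 and 9.66 at ZT8 and at 9.54, 9.39, 9.43 and 9.08 at ZT20. Its ZT8 replicate 3 lay far below the other 3, and the groups overlapped. Its difference was 0.20 (-0.03 to 0.43). The other Rbm3 probe sets gave 0.28 (0.03 to 0.53) and 0.27 (0.04 to 0.49), each with overlapping groups and an adjusted p of 0.999 from limma. Hnrnpdl, which encodes a further RNA-binding protein, was at 9.29 to 9.48 on the ZT8 arrays and at 8.84 to 9.11 on the ZT20 arrays, without overlap (difference 0.37, 0.18 to 0.57). Over the day, the mean level of Cirbp was highest at ZT12 (7.34 ± 0.08) and ZT8 (7.32 ± 0.13), which lay within their SD of each other, and lowest at ZT20 (6.95 ± 0.07; SD, n = 4 each).

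Genes of mature oligodendrocytes, the cells that make myelin, were among the transcripts with the smallest p that stood higher at ZT8. Opalin, which encodes a membrane protein of these cells, was at 7.44, 7.51, 7.02 and 7.36 at ZT8 and at 6.66, 6.76, 6.74 and 6.99 at ZT20. The lowest ZT8 array and the highest ZT20 array nearly met, and the others were well apart. At 0.54 (0.30 to 0.78) its difference was larger than that of Nr1d1 but less certain, with an adjusted p of 0.733 from limma. Mog, the myelin oligodendrocyte glycoprotein, was at 8.28 to 8.40 on the ZT8 arrays and at no more than 8.20 on the ZT20 arrays (difference 0.26, 0.11 to 0.40). Pllp, the myelin proteolipid plasmolipin, was at 8.36 to 8.68 and at 8.11 to 8.29 (difference 0.31, 0.16 to 0.46). Neither overlapped between the groups. Mag, the myelin-associated glycoprotein, gave 0.18 (0.03 to 0.33) with overlapping groups. None of these passed the adjusted threshold. The abundant myelin genes Mbp, Cnp and Mobp gave 0.03, 0.05 and 0.00.

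Over the list of 10 oligodendrocyte genes, which does not hold Pllp, 9 had the higher mean at ZT8 and the median difference was 0.09, against 0.00 over all transcripts. At an unadjusted p under 0.05, 3 were higher and 0 lower, against 2.03% of all transcripts higher, and 0 passed the adjusted threshold. The mean level of the list was 8.69 to 8.85 on the ZT8 arrays and 8.55 to 8.68 on the ZT20 arrays. The list gave a median of 0.11 at ZT4 minus ZT16 and -0.01 at ZT0 minus ZT12. Of its genes, 8 were in the top part when all transcripts were split by mean level into 5 equal parts, and this top part as a whole lay higher at ZT8, with 4.98% of it higher at an unadjusted p under 0.05. After a cyclic loess normalization, which takes that trend out, 6 of 10 were higher, the median was 0.04, and the levels of the list overlapped (8.68 to 8.79 and 8.57 to 8.71). For 6 genes of the precursors of these cells, 3 were higher at a median of 0.00. The part of myelinated fibres in the punches was not tested.

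Levels of the most abundant transcripts were as a rule higher at ZT8, which bears on every list of abundant genes. In the top part of transcripts by mean level, of 4682, 70.7% had the higher mean at ZT8 with a median difference of 0.05, and 4.98% were higher at an unadjusted p under 0.05. In the bottom part, 32.9% were higher, with a median of -0.05. ZT20 replicate 4 was at one end of this trend, since the median deviation of its top transcripts from the mean of all arrays was -0.15, where the other 7 arrays lay between -0.03 and 0.08. Without ZT20 replicate 4, the share in the top part was 58.0% and its median was 0.02. After cyclic loess, the share was 48.3%. The cause of this trend was not tested.

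Genes of mitochondrial respiration had a larger median than the abundant transcripts as a whole. Oxidative phosphorylation is the chain of complexes that makes ATP from electrons and oxygen, and 50 of its 51 measured genes were higher at ZT8, with a median difference of 0.17 and a range of -0.06 to 0.31. Of these genes, 18 were higher and 0 lower at an unadjusted p under 0.05, where 2.03% of all transcripts and 4.98% of the top part by level were higher, and 0 passed the adjusted threshold. The smallest p was that of Cyc1 of complex III, at 8.94 to 9.07 at ZT8 and 8.71 to 8.84 at ZT20 (difference 0.23, 0.09 to 0.37). Cox4i1 of complex IV was at 10.34 to 10.61 and 9.89 to 10.34 (difference 0.31, 0.12 to 0.50). Ndufc2 of complex I was at 9.84 to 10.09 and 9.56 to 9.81 (difference 0.30, 0.10 to 0.51). None of the 3 overlapped between the groups, but for Cox4i1 the lowest ZT8 array, 10.3387, and the highest ZT20 array, 10.3385, all but met. In the whole list, 8 genes did not overlap and were higher at ZT8, where 1.79% of all transcripts were. The mean level of the list was 9.14, 9.25, 9.07 and 9.29 on the ZT8 arrays and 9.09, 9.02, 9.08 and 8.91 on the ZT20 arrays. The groups overlapped, with ZT8 replicate 3 the lowest of its group, and ZT20 replicate 4 the lowest of all 8. Of the 51 genes, 42 were in the top part by level. After cyclic loess, 50 of 51 were higher at a median of 0.09, with 7 at an unadjusted p under 0.05, and the levels of the list were 9.10 to 9.27 at ZT8 and 9.06 to 9.09 at ZT20. Without ZT20 replicate 4, 47 of 51 were higher at a median of 0.12. The list gave a median of 0.09 at ZT4 minus ZT16 and 0.04 at ZT0 minus ZT12.

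Ribosomal protein and glycolysis genes gave smaller medians. Of 33 genes of cytosolic ribosomal proteins, 30 were higher at ZT8 with a median of 0.13, 4 of them at an unadjusted p under 0.05. In the top part by level, which holds 29 of the 33, 70.7% of transcripts had the higher mean at ZT8 and 4.98% were higher at such a p. Rps14, of the small subunit, was at 9.04 to 9.34 at ZT8 and 8.68 to 8.98 at ZT20 (difference 0.35, 0.14 to 0.57), while its other probe set gave 0.05. Rpl5 and Rps13 gave 0.18 and 0.25. Ribosomal protein genes have near-identical copies in the genome, so these values are uncertain as to the locus. The median was 0.05 with 25 of 33 higher after cyclic loess, and 0.07 without ZT20 replicate 4. Of 16 glycolysis genes, 15 were higher at ZT8 with a median of 0.08, and 0 had an unadjusted p under 0.05. Hk1, which encodes the main hexokinase of brain, gave 0.30 (-0.00115 to 0.59), with ZT8 replicate 4 at 10.87 and the other 3 at 10.26 to 10.33, and its other probe set gave -0.02. The glycolytic enzyme genes Pgk1 and Aldoc gave 0.15 and 0.16. The glycolysis median was 0.02 after cyclic loess and 0.04 without ZT20 replicate 4. Of 14 genes of synaptic vesicle release, 13 were in the top part by level, and their median of 0.04 turned to -0.02 after cyclic loess and to -0.01 without ZT20 replicate 4. Sv2a, Snap25 and Unc13a had the smallest p among them, at 0.18, 0.12 and 0.14, but the other Unc13a probe sets gave -0.07 and -0.05.

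**Figure D3:**
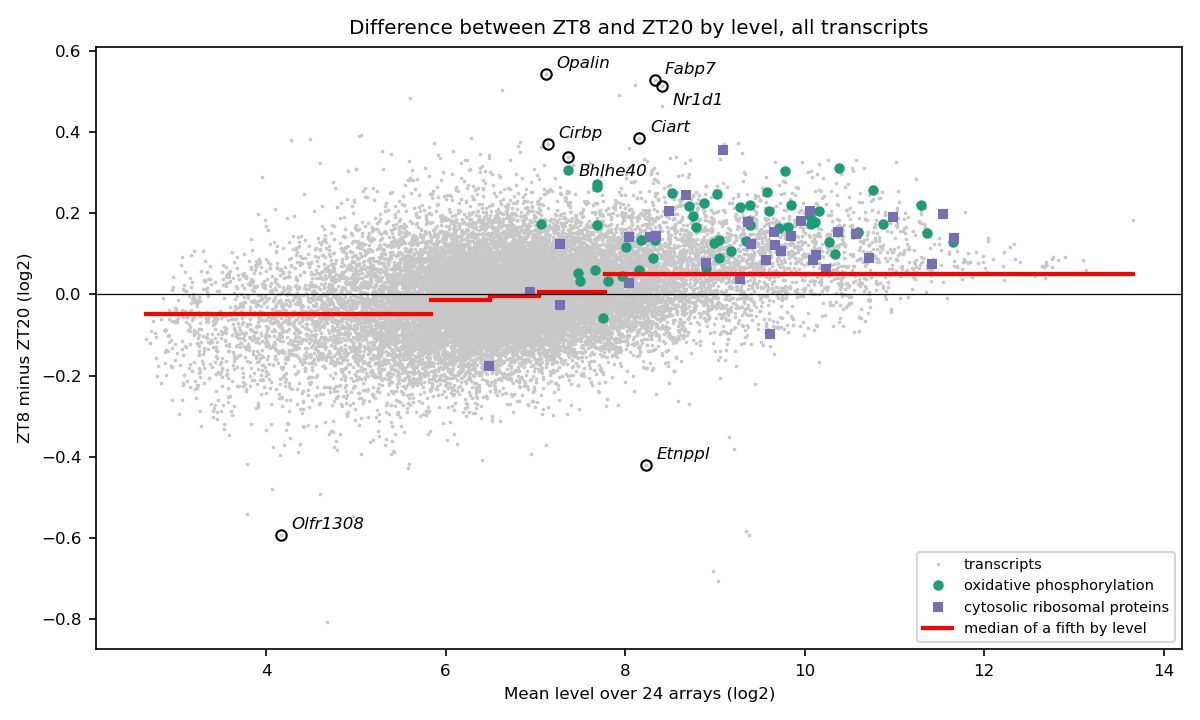
Difference ZT8 minus ZT20 (log2, vertical axis) against mean level over 24 arrays (log2, horizontal axis) for all 23410 transcripts in grey, with oxidative phosphorylation genes as green circles, ribosomal protein genes as purple squares and 8 transcripts ringed and named. Red lines give the median in each of 5 equal parts by level, from -0.05 in the lowest to 0.05 in the highest.

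**Figure D4:**
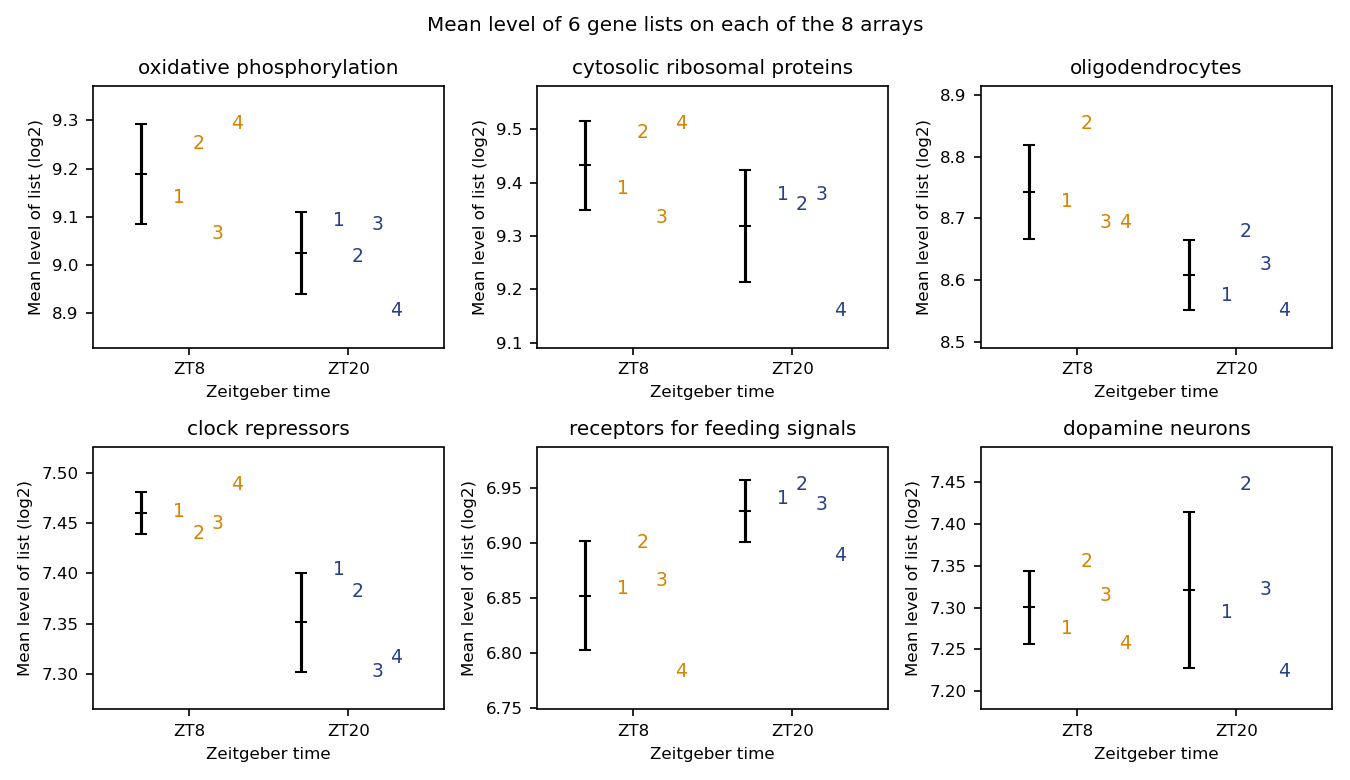
Mean level (log2, vertical axis) of 6 gene lists on each of the 8 arrays, with the replicate number as the symbol, ZT8 in orange and ZT20 in blue, and mean ± SD (n = 4) in black. Clock repressors and oligodendrocyte genes do not overlap between the groups, the other 4 lists do, and ZT20 replicate 4 is the lowest array for oxidative phosphorylation, ribosomal proteins, oligodendrocytes and dopamine neurons.

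Cholesterol synthesis, which supplies membranes and myelin, had 15 of 19 genes higher at ZT8 with a median of 0.10 (0.09 after cyclic loess, 0.07 without ZT20 replicate 4). Sqle, the squalene epoxidase, was at 8.10 to 8.34 on the ZT8 arrays and at no more than 8.09 on the ZT20 arrays (difference 0.19, 0.04 to 0.34). Insig1, which encodes a sterol-responsive protein that restrains the pathway, was at 9.08 to 9.43 and at 8.86 to 9.05 (difference 0.26, 0.05 to 0.47). Neither overlapped between the groups, and these were the 2 of the list at an unadjusted p under 0.05, with 0 past the adjusted threshold. Of all transcripts, 1.79% did not overlap and were higher at ZT8, and 2.03% were higher at an unadjusted p under 0.05. In the top part by level, which holds Sqle and Insig1, 4.98% were higher at such a p. After cyclic loess, 1 gene of the list was. Msmo1, the enzyme that acts on methyl sterols, gave 0.17 (-0.02 to 0.36). The list gave a median of 0.09 at ZT4 minus ZT16 and -0.02 at ZT0 minus ZT12.

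Astrocyte genes diverged among themselves. Fabp7, the brain fatty acid-binding protein of astrocytes and their precursors, was at 8.56, 8.65, 8.41 and 8.60 at ZT8 and at 8.13, 8.25, 7.94 and 7.78 at ZT20. The groups did not overlap, and the difference was 0.53 (0.13 to 0.92, adjusted p = 0.999 from limma). Its difference between ZT4 and ZT16 was 1.10. Etnppl, which encodes an astrocyte enzyme that breaks down phosphoethanolamine and is not on the marker list, stood the other way. It was at 8.01, 8.29, 8.05 and 7.80 at ZT8 and at 8.28, 8.49, 8.59 and 8.47 at ZT20. The highest ZT8 array overlapped the lowest ZT20 array there (difference -0.42, -0.63 to -0.21, adjusted p = 0.736 from limma). Over the list of 10 astrocyte markers, 5 were higher and the median was 0.00, with the calcium-binding protein gene S100b at 0.20 (-0.01 to 0.42) and the folate enzyme gene Aldh1l1 at -0.10 (-0.26 to 0.06).

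Genes of dopamine neurons gave no difference that passed the test. Th was at 7.86, 7.92, 7.84 and 7.68 at ZT8 and at 7.88, 8.21, 7.77 and 7.59 at ZT20. The groups lay over each other, and the difference of -0.04 had an interval of -0.33 to 0.24. Slc6a3 gave -0.17 (-0.58 to 0.24), with ZT20 replicate 2 the highest array at 9.18. Slc18a2, the vesicular monoamine transporter, gave 0.01 (-0.17 to 0.18), and Ddc, the enzyme that makes dopamine from L-DOPA, gave 0.01 (-0.22 to 0.24). Of 20 dopamine neuron genes, 8 were higher at ZT8 with a median of -0.03, and 0 had an unadjusted p under 0.05 in limma. The transcription factor genes Otx2 and Nr4a2 gave 0.14 and -0.12, and the nicotinic receptor subunit gene Chrnb3 gave -0.19. Of 7 genes of dopamine breakdown and of its cofactor, 6 were higher at ZT8 at a median of 0.17, or 0.11 after cyclic loess and 0.11 without ZT20 replicate 4. Qdpr, which recycles tetrahydrobiopterin, the cofactor of Th, was the 1 at an unadjusted p under 0.05 (0.24, 0.05 to 0.43). Of all transcripts, 2.03% were higher at such a p, and of the top part by level, which holds Qdpr, 4.98%. The Qdpr groups overlapped, ZT20 replicate 4 was the lowest at 9.08, and cyclic loess gave 0.17. Gch1, which begins the synthesis of tetrahydrobiopterin, gave -0.23 (-0.51 to 0.05), and Maoa, a monoamine oxidase, gave 0.17 (-0.05 to 0.39).

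ZT20 replicate 2 differed from its group in markers of monoamine neurons. The serotonin transporter gene Slc6a4 was at 8.45 to 8.52 on 3 of the ZT20 arrays and at 7.80 on replicate 2, and Tph2, the enzyme of serotonin synthesis, was at 7.64 to 7.72 and at 7.17. Their differences between the groups were 0.03 and 0.11. This array also had the highest mean level of dopamine neuron genes, 7.45, where the other 7 lay between 7.22 and 7.36. Gata3, a transcription factor of serotonin and other neurons, was at 6.63 to 6.82 at ZT8 and at 6.88 to 7.22 at ZT20 (difference -0.26, -0.46 to -0.06). The part of punch position in these values was not tested. The medians of 3 GABA, 3 glutamate and 3 serotonin markers were 0.03, 0.06 and 0.03 (GABA -0.05 and serotonin -0.01 after cyclic loess), and that of 14 neuropeptide genes was -0.02. Among these, Slc32a1, the vesicular GABA transporter, gave 0.10 (-0.03 to 0.24), Slc17a7, a vesicular glutamate transporter, gave 0.11 (-0.08 to 0.30) and Sst, the somatostatin gene, gave 0.11 (-0.05 to 0.28).

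Receptors for feeding signals were mostly lower at ZT8, with 13 of 17 genes lower and a median of -0.08. At an unadjusted p under 0.05, 4 were lower and 0 higher, where 2.24% of all transcripts were lower. Lepr, the leptin receptor, was at 5.31, 5.32, 5.33 and 5.26 at ZT8 and at 5.47, 5.75, 5.57 and 5.40 at ZT20. The groups did not overlap, at a level in the lower part of the array (difference -0.24, -0.43 to -0.06, adjusted p = 0.999 from limma). In the bottom part of all transcripts by level, which holds Lepr, 5.79% were lower at an unadjusted p under 0.05. Adipor2, an adiponectin receptor, gave -0.27 (-0.50 to -0.04), and -0.44 at ZT4 minus ZT16 and -0.45 at ZT0 minus ZT12. Igf1r, the receptor of insulin-like growth factor, gave -0.17 (-0.32 to -0.01). The median of the list was -0.08 after cyclic loess and -0.09 without ZT20 replicate 4.

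Stress-responsive lists held members that were higher and members that were lower. Of 16 glucocorticoid-induced genes, 11 were lower at ZT8 with a median of -0.05, where the same list had a median of -0.23 at ZT0 minus ZT12. Sgk1, a kinase gene induced by corticosterone, was at 6.73, 7.02, 7.04 and 7.02 at ZT8 and at 6.86, 7.40, 7.47 and 7.25 at ZT20. In each group replicate 1 was the lowest, and the groups overlapped through the lowest ZT20 array. Its difference was -0.29 (-0.52 to -0.06), and at ZT0 minus ZT12 it was -0.76. Zbtb16, a transcription factor gene, and Pdk4, a kinase gene of fuel choice, gave -0.15 and -0.18, and Klf9, a further transcription factor gene, gave 0.07, against -0.48 at ZT0 minus ZT12. Of 17 ER stress genes, 12 were lower with a median of -0.08 (-0.11 after cyclic loess). The protein disulfide isomerase gene Pdia6 was at 7.55 to 7.75 at ZT8 and 7.76 to 7.97 at ZT20 (difference -0.20, -0.36 to -0.03). The chaperone gene Hyou1 gave -0.15, whereas Atf4, a transcription factor of the response, gave 0.14. Hspa5, the chaperone BiP, gave -0.15 (-0.31 to 0.02), against 0.44 at ZT0 minus ZT12.

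Among 12 heat shock genes, 7 were higher with a median of 0.02, which turned to -0.06 after cyclic loess, and the small heat shock protein gene Hspb1 gave -0.20 (-0.35 to -0.04). Immediate early genes, which neurons induce on activity, had 11 of 19 lower at a median of -0.02, with the transcription factor genes Egr4 at -0.18 (-0.36 to -0.01) and Npas4 at -0.14 (-0.33 to 0.05). For 11 genes of sleep need and waking, the median was -0.04. For 13 genes of amino acid transport and mTOR it was 0.00, with the amino acid transporter genes Slc7a5 at 0.09 (-0.08 to 0.25) and Slc38a2 at -0.22 (-0.46 to 0.02). Mitotic genes had 10 of 11 lower at a median of -0.09, of which the checkpoint kinase gene Bub1 (-0.32, -0.56 to -0.08) and the mitotic kinase gene Cdk1 (-0.21, -0.37 to -0.04) had the smallest p. Their median level was 5.79, in the bottom part of transcripts, where most differences were below 0, and the median was -0.06 after cyclic loess. The 7 interferon-induced genes had a median of 0.06.

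**Figure D5:**
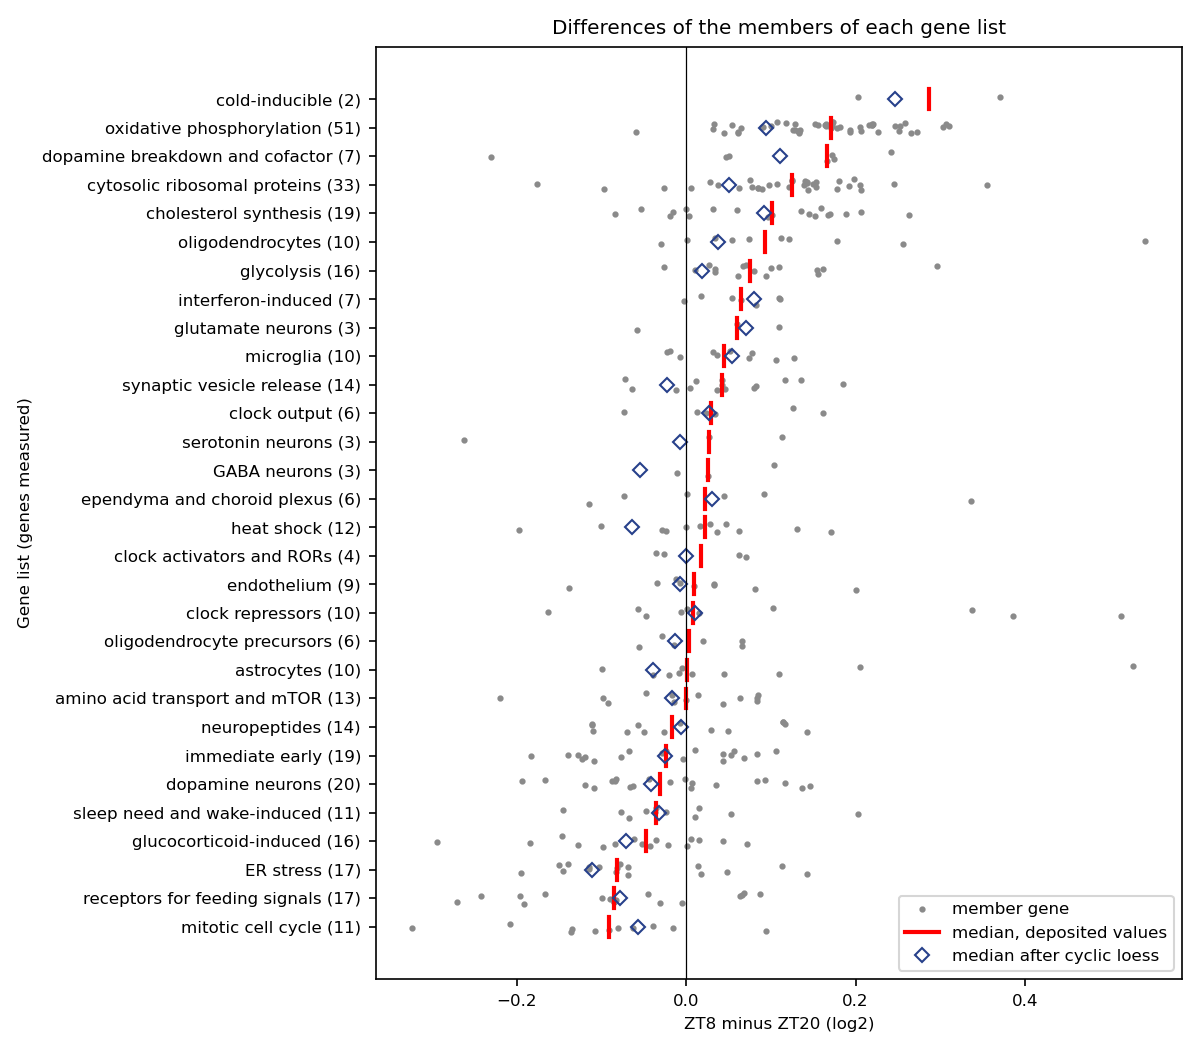
Difference ZT8 minus ZT20 (log2, horizontal axis) of the members of each gene list with more than 1 measured gene, as grey points, sorted by the list's median (red bars), with the median after cyclic loess as blue diamonds. Oxidative phosphorylation has 50 of 51 members above 0, at a median of 0.17 that moves to 0.09.

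Of the 8 transcripts more than 0.5 lower at ZT8, 4 were probe sets that each match several globin genes, the oxygen carriers of red blood cells, which were looked at after their values were seen. Their mean level was 9.48, 9.32, 8.55 and 8.81 at ZT8 and 9.48, 10.04, 10.00 and 9.21 at ZT20. The groups overlapped, with ZT20 replicates 2 and 3 highest of all 8. The 4 differences were between -0.70 and -0.58, with unadjusted p of 0.00173 to 0.0168 in limma, and 0 passed the adjusted threshold. The red cell gene Alas2, an enzyme of haem synthesis, gave -0.09 (-0.26 to 0.09). Car8, Macroh2a2, A530053G22Rik, Samt2b and Trdn, seen in the same way, were the other transcripts further than 0.5 from 0 beside Nr1d1, Opalin, Fabp7 and Olfr1308, with differences of 0.52, 0.50, -0.55, -0.54 and -0.81. Car8 and Trdn overlapped between the groups. Tfrc, the transferrin receptor that takes up iron, was also seen afterwards, at 8.05 to 8.15 on the ZT8 arrays and 7.57 to 7.76 on the ZT20 arrays, without overlap (difference 0.49, 0.20 to 0.78, adjusted p = 0.999 from limma).

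The remaining cell types were close to 0. Medians were 0.04 for 10 microglia genes, 0.01 for 9 endothelium genes (-0.01 after cyclic loess) and 0.02 for 6 genes of ependyma and choroid plexus. C1qa, a complement subunit of microglia, gave 0.13 (-0.03 to 0.28), and Cldn5, a tight junction protein of endothelium, gave -0.14 (-0.32 to 0.04). Ttr, the transthyretin of choroid plexus, was at 6.07, 6.06, 6.89 and 8.01 on the ZT8 arrays and at 6.31 to 6.48 on the ZT20 arrays. ZT8 replicate 4 was thus far above the others, and the interval of the difference ran from -0.31 to 0.98.

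Low-level transcripts made up much of the rest of the smallest p. Among the 1001 with an unadjusted p under 0.05, 85 (8.49%) were olfactory or vomeronasal receptor genes, which serve smell and are 5.87% of the transcripts tested. In the bottom part of all transcripts by level, 5.79% were lower at ZT8 and 0.833% higher at such a p. How far level bears on the share of these receptors was not tested. Olfr1308 was at 3.70 to 4.12 at ZT8 and at 4.33 to 4.59 at ZT20 (difference -0.59, adjusted p = 0.733 from limma), and Vmn1r27 was at 3.72 to 3.95 and at 4.19 to 4.30 (difference -0.38). Both lie among the lowest transcripts of the array, and so do Olfr1212 (0.38), Mir34a (0.38), Ugt2b35 (-0.28), Spef2 (-0.34), Tktl1 (-0.36), Slamf1 (-0.29) and Cdc42ep5 (-0.34), whose other probe set gave 0.11. Olfr1212 and Tktl1 overlapped between the groups. Lrrc20 (0.35), Nufip1 (0.35) and Atad3aos (0.32), by its name an antisense RNA, stood higher at ZT8 without overlap. Triml2 (-0.37), Zfp133-ps (-0.28) and Plekhf1 (-0.37) stood lower without overlap. Of all transcripts, 1.79% were higher and 1.82% lower without overlap. The mean levels of Lrrc20, Nufip1, Atad3aos and Triml2 were below the median of 6.76 over all transcripts, and those of Zfp133-ps and Plekhf1 above it. Fat3, which encodes a large atypical cadherin, was at 7.62 to 7.68 at ZT8 and at 7.81 to 7.97 at ZT20 (difference -0.27, -0.42 to -0.13) by its probe set of smallest p. The 14 other Fat3 probe sets ran from -0.24 to 0.12, 12 of them with an interval that included 0, and the 21 other Spef2 probe sets ran from -0.30 to 0.11. None of these passed the adjusted threshold.

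The transcripts whose means at the 6 times ran most like those of Nr1d1 were Dnajc19 (Pearson r = 0.993 over 6 time-point means), Cd160 (0.989) and Zfp521 (0.987). Their differences between ZT8 and ZT20 were smaller, at 0.15 (-0.05 to 0.35), 0.12 (-0.05 to 0.29) and 0.11 (-0.09 to 0.31). These correlations describe 6 points, chosen from all transcripts, and carry no test.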

How the data were processed

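RNA from VTA punches of 24 mice, 4 at each of 6 time points, was labelled with biotin and hybridised to whole-transcript GeneChip arrays, 1 per mouse. The authors deposited log2 values made with RMA in R 2.13.1, per the labels. A further scaling to the average of each gene that the methods name is not in these values. The labels give the time points used here, and the methods text names another interval.

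Of 35556 probe sets, 12146 without a gene in the platform annotation were set aside (0 past the adjusted threshold, 684 at an unadjusted p under 0.05 in limma), and 23410 were tested as transcripts, 21789 with 1 gene and 1621 with several. Symbols were updated by gene identifier through RefSeq (21698 matched). In the lists, a gene stands for its probe set with the highest mean level, and probe sets of several genes were left out.

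The 6 time points were fitted as groups over all 24 arrays with limma 3.58.1 (lmFit, eBayes) in R 4.3.3, and p was adjusted by Benjamini-Hochberg over all transcripts. Intervals are 95% confidence intervals from this fit, and "higher" with no p is a difference of means. The genes named are up to 12 in each direction with the smallest p, the clock genes, 10 set names, the 3 members with the smallest p of the other lists described, up to 5 with the smallest p in each comparison of differences, and the 3 most like Nr1d1; others are said to be chosen after their values were seen, or belong to a list. The choice of times, the 31 gene lists and these rules were made with earlier results of these data known. Lists are described by counts and medians, with no test.

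Alternatives were the 8 arrays alone, a replicate block, every probe set with or without a gene, only the upper part by level (above the median), quantile normalization, centring, linear values, array weights, robust and trended variances, an unmoderated test and leaving out arrays of ZT8 and ZT20. Cyclic loess was chosen after seeing the data. Leaving out arrays of other times was planned for the comparisons of differences. For ZT8 against ZT20 it was chosen after seeing the data, except for ZT0 replicate 4, which was planned. Replicate numbers did not pair the arrays, since deviations from the group means of ZT8 and ZT20 arrays of the same number correlated at -0.10 to 0.04. The fits were tested on simulated data. Plots were drawn with matplotlib 3.10.9. The wave-fitting program of the study was not used here.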

Additional observations from a re-analysis of the deposited data

Results flagged for a closer look

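Against ZT0 minus ZT12, the difference between late rest and late activity passed the adjusted threshold for 2 transcripts by limma, Nr1d1 (gap 0.89) and Cirbp (gap 0.71). The gap sets ZT8 and ZT12 against ZT20 and ZT0, and does not compare sizes apart from sign. In both transcripts the 2 differences were opposite in sign. Both kept an adjusted p under 0.05 in all 26 alternatives that gave this comparison, with a highest adjusted p of 0.0103 for Nr1d1 and 0.0129 for Cirbp.

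In 15 of 320 groups of 4 arrays tested, over the named genes and the lists, 1 array lay far from the other 3 by Dixon's criterion. Chance gives about 1 such group in 20. At ZT8 the array far from the rest was the lowest for Sgk1 (6.73), Rbm3 (9.17), Gch1 (5.36) and Ddit4 (6.17), and the highest for Hk1 (10.87), Per3 (6.73) and the mean of the clock activators and RORs (7.61). At ZT20 it was the lowest for Olfr1308 (4.33), Rpl5 (9.57), Tph2 (7.17) and Slc6a4 (7.80) and for the means of the ribosomal proteins (9.16) and of synaptic vesicle release (8.85), and the highest for Trem2 (7.57) and Slc17a8 (6.38).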

How the results depend on the processing

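The difference of Nr1d1 between ZT8 and ZT20 was 0.47 to 0.57 over 35 alternatives and passed the adjusted threshold in 11, with adjusted p of 0.00098 to 0.477. The count between ZT8 and ZT20 was 0 in place of 1 with the 8 arrays alone, all probe sets, quantile normalization, the unmoderated test and cyclic loess, and 0 to 1 without single arrays. With the replicate number as a block it was also 0, with 1096 at an unadjusted p under 0.05, and whether the numbers stand for a batch was not tested. At an unadjusted p under 0.05 there were 1560 with the 8 arrays alone, 1620 with all probe sets, 501 above the median level, 1679 with array weights and 711 to 1381 without single arrays, against 1001. For the gap to ZT4 minus ZT16 these were 1048 with all probe sets, 196 above the median level, 1029 with array weights and 518 to 824 without single arrays, against 578, with 0 past the adjusted threshold without single arrays. For the gap to ZT0 minus ZT12, 5 passed above the median level, 4 after quantile normalization, 7 with array weights and 5 unmoderated, against 2. Without single arrays 2 to 6 passed, 6 without ZT8 replicate 3 and 4 without ZT20 replicate 4. At an unadjusted p under 0.05 there were 1673 with all probe sets, 581 above the median level, 1668 with array weights and 786 to 1457 without single arrays, against 1104. Cyclic loess gave 2 between ZT4 and ZT16 in place of 0. All probe sets and the median level change the number tested, and the cause of the other shifts was not tested. Of 4524 pairs of a named gene and an alternative, 24 lost the call, all of Nr1d1, 10 moved by more than the spread and 0 reversed, and of 588 pairs of a list and an alternative, 11 moved, in 8 lists. The number of arrays limits the precision, and signal over background was not measured here.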
